A study of Mus musculus and Homo sapiens with 15 samples.

Results

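The cytosolic ribosomal protein genes of HEK293XT cells were described here as carriers of C-to-U edits. The group holds the 83 genes named RPL or RPS that label at least 1 edit cluster of these cells, out of 18756 gene symbols in the same cluster labels. Pseudogenes and the kinases whose symbols begin with RPS6K were left out by symbol. Of the 83, 49 belong to the large subunit (RPL and RPLP), 31 to the small subunit (RPS and RPSA), and 3 are read-through genes that join a ribosomal protein gene to its neighbour (RPL17-C18orf32, RPL36A-HNRNPH2 and RPS10-NUDT3). Among the 80 that are no read-through genes, 6 are paralogs such as RPL26L1, RPL7L1 and RPL22L1. A further 8 genes of the same symbol pattern label no cluster and are not in the group.

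Ribosomal proteins coat the ribosomal RNA and hold the large and small subunits of the ribosome in shape. Their mRNAs are among the most abundant in dividing cells, are short and rich in coding sequence, and begin with a pyrimidine tract through which growth signals set their translation. The acidic proteins RPLP0, RPLP1 and RPLP2 form the stalk that recruits translation factors, and nearly every ribosomal protein gene has processed pseudogenes elsewhere in the genome.

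In INSCRIBE, a fusion of rat APOBEC1, a cytidine deaminase, and a nanobody against rabbit IgG is brought by an antibody to the RNAs bound by a protein in fixed cells. The 6 libraries used here are enzyme-only controls of HEK293XT, a human embryonic kidney line: the cells received the fusion and no antibody, so no protein directed the deaminase. Of these, 3 were made from 1 ng of RNA and 3 from 100 pg, and the comparison asks whether edits are found alike at both inputs. The replicates were separate slides of 1 cell line, so the p-values measure only the spread between these slides, which may be technical. All 6 libraries carry the same enzyme treatment. No library without enzyme was analysed for these cells. Per the methods, low-input libraries were made with the NEBNext single-cell kit, which keeps no strand, while the labels list this kit and a stranded one together for every sample. What is said of strands below rests on the methods. Since the samples are bulk RNA, fewer cells with an RNA and less of it per cell cannot be told apart. The study states an approximate depth for its low-input libraries as a whole, and read totals per library were not used here. The files hold 23889 to 31947 clusters per 1 ng library and 15474 to 16731 per 100 pg library, and 35507 to 71137 listed C-to-U sites in genes per library. The line was checked against markers: VIM, KRT18, MKI67 and TOP2A had listed sites in all 6 libraries, NEFL in 5, KRT8 and NEFM in 4, and none of 7 markers of other cells (ALB, HBB, HBA1, PTPRC, GFAP, COL1A1 and PECAM1) had a listed site in any.

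The sites that carried the results are shown first. Each line gives 21 bases of the hg38 genome on the strand of the gene, 5′ to 3′, with the edited cytidine as the capital letter. The RPS23 and RPL31 sites are those that passed the site filter in at least 4 libraries. The other sites were chosen after their values were seen, because they were listed in all 6 libraries at edited shares among the highest. The RPS23 codon 2 sequence starts in the intron before the exon.
RPS23 codon 2, chr5:82277841-82277861, minus strand: aatttttaggCaagtgtcgtg
RPS23 codon 129, chr5:82276145-82276165, minus strand: gccaatgtttCtcttttggcc
RPL31 non-coding exon, chr2:101019511-101019531, plus strand: tttcttaaggCttttttaact
RPL10 codon 122, chrX:154400489-154400509, plus strand: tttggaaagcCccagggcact
RPL23A codon 144, chr17:28723606-28723626, plus strand: ctcctgattaCgatgctttgg
RPL5 3′ UTR, chr1:92841869-92841889, plus strand: cagcaattttCtatgattttt
RPS3 codon 78, chr11:75401702-75401722, plus strand: agaggtttggCtttccagagg
RPS27A codon 55, chr2:55234169-55234189, plus strand: gatggacgtaCtttgtctgac

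The ribosomal protein genes held a small and similar share of the edit clusters at both inputs. Their clusters numbered 112, 157 and 169 in the 1 ng libraries and 90, 80 and 76 in the 100 pg libraries, a mean of 146 ± 30.0 (SD, n = 3) against 82.0 ± 7.21 (SD, n = 3). The 2 groups did not overlap, and neither did those of all genes, whose clusters were 1.80 times as many at 1 ng. As a share of all clusters, the ribosomal protein genes held 0.469%, 0.491% and 0.555% at 1 ng and 0.582%, 0.509% and 0.454% at 100 pg. These shares overlapped, with a ratio of 0.981 between the group means, which lies within the spread between replicates. Mitochondrial ribosomal protein genes, taken as a comparison list, held 0.542% to 0.645% at 1 ng and 0.628% to 0.757% at 100 pg, and also overlapped. Proteasome subunit genes (0.315% to 0.36% against 0.509% to 0.562%) and nuclear oxidative phosphorylation genes (0.404% to 0.461% against 0.801% to 0.903%) held a lower share at 1 ng, with no overlap between the inputs.

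Within the group, clusters were split by the start of the symbol, RPL or RPS, with read-through genes included. They thus hold clusters of a read-through gene that no ribosomal protein gene shares. RPL symbols carried 76, 102 and 107 clusters at 1 ng and 51, 51 and 47 at 100 pg. RPS symbols carried 36, 55 and 62 against 39, 29 and 29, and these overlapped. Most clusters were labelled exon, 87, 122 and 135 at 1 ng and 76, 66 and 61 at 100 pg, and the rest intron. Of 684 clusters over the 6 libraries, 316 held a single edited base. A gene of the group had a median of 6 clusters summed over the libraries.

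A cluster of a ribosomal protein gene held more edited bases from 100 pg than from 1 ng. It held 3.15, 3.26 and 3.14 edited bases on average in the 1 ng libraries and 8.37, 8.19 and 7.63 in the 100 pg libraries. Clusters of all other genes were ordered alike, with 2.08 to 2.18 at 1 ng and 4.40 to 4.94 at 100 pg. The edit rate, the share of edited among all cytidine bases read in the clusters, was 0.728%, 0.701% and 0.691% at 1 ng and 0.426%, 0.285% and 0.481% at 100 pg in the ribosomal protein genes, a ratio of 1.78 with no overlap. In other genes this pooled rate lay at 0.589% to 0.614% against 0.631% to 0.656%, so the order of the inputs was turned. By the median over clusters the order was not turned: it was 0.755% to 0.796% against 0.506% to 0.543% in the ribosomal protein genes (ratio 1.49, no overlap) and 0.833% to 0.881% against 0.769% to 0.833% in other genes (ratio 1.06, with overlap). A higher pooled rate at 1 ng was not particular to ribosomal protein genes. Nuclear oxidative phosphorylation genes had 0.300%, 0.416% and 0.355% at 1 ng and 0.221%, 0.244% and 0.254% at 100 pg, a ratio of 1.49 with no overlap. RPS23 alone supplied 37.7% to 40.8% of the group's edited bases at 1 ng and 20.2% to 31.9% at 100 pg. Without RPS23 the rates were 0.513%, 0.455% and 0.508% at 1 ng and 0.344%, 0.237% and 0.343% at 100 pg, still without overlap. The deposited mean depth of the median cluster of the group was 610 to 1308 reads at 1 ng and 937 to 1194 at 100 pg. In other genes it was 48.3 to 54.9 and 64.8 to 65.9. This depth can far exceed the cover of the cytidines in a cluster. An RPL17 cluster at 100 pg had a depth of 3766 over sites covered by 40 to 42 reads. The part of read depth in the difference of rates was not tested.

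**Figure D1:**
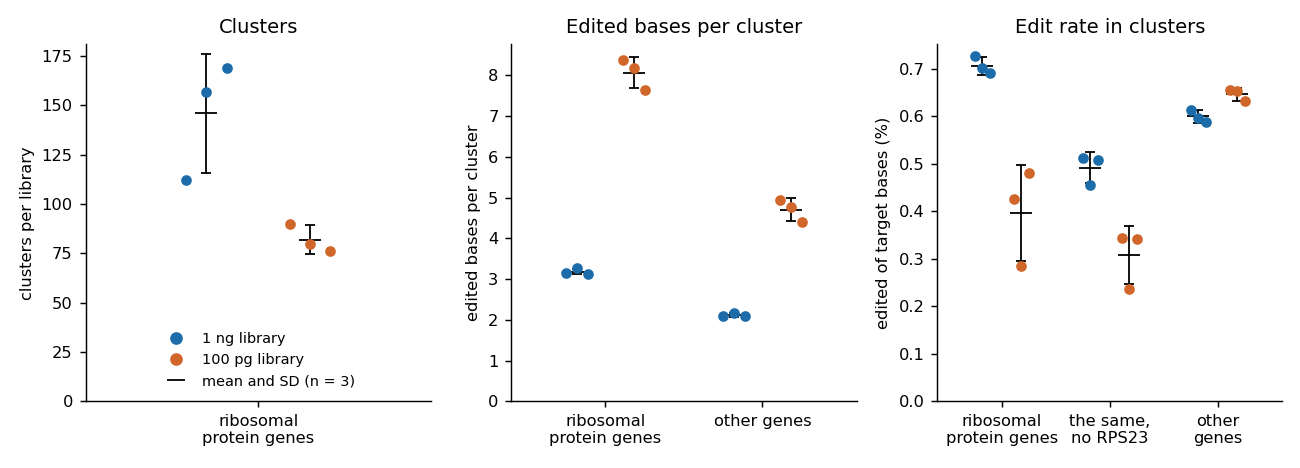
Edit clusters of the ribosomal protein genes by library. The 3 panels give the number of clusters per library, the edited bases per cluster and the edit rate in clusters (edited of target bases, %), each point a library, each bar the mean with its SD (n = 3). The 1 ng libraries hold more clusters (112 to 169 against 76 to 90) with fewer edited bases each, and the pooled edit rate is higher at 1 ng in the ribosomal protein genes with and without RPS23. The pooled rate of all other genes is lower at 1 ng, while their median cluster rate (0.854% against 0.807%) overlaps between the inputs.

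Every library reached a different subset of the ribosomal protein genes. A cluster was found in 53, 61 and 60 of the 83 genes in the 1 ng libraries and in 53, 43 and 48 in the 100 pg libraries. In all 6 libraries, clusters were found in 12 genes, or 14.5% of the group, against 20.9% of all 18756 symbols. These were RPL5, RPL10, RPL21, RPL22, RPL31, RPL36A, RPL37, RPL7L1, RPS6 and RPS23 and the read-through genes RPL36A-HNRNPH2 and RPS10-NUDT3. Clusters in all 3 libraries of 1 ng and in none of 100 pg marked RPLP1 and RPLP2, the stalk proteins, or 2.41% of the group against 1.98% of all symbols. The reverse was seen for 0 genes of the group against 0.389% of all symbols. Shares this near to those of all symbols are not a property of the group. Over the inputs together, 79 genes had a cluster at 1 ng and 79 at 100 pg. RPLP1, RPLP2, RPL8 and RPS9 had clusters at 1 ng alone, and RPL18, RPS15, RPS18 and RPS21 at 100 pg alone. Each of these genes other than RPLP1 and RPLP2 had only 1 cluster, in 1 library. The share of all symbols with clusters at 1 input alone was not counted, so these genes are not read as particular to an input.

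Among the stalk genes, RPLP0, the anchor of the stalk, had 1, 3 and 4 clusters at 1 ng and 0, 3 and 0 at 100 pg. RPLP1 had 2, 1 and 2 at 1 ng, with 2, 2 and 3 edited bases. RPLP2 had 1, 1 and 3 at 1 ng, with 1, 1 and 7 edited bases. The edited bases of RPLP1 and RPLP2 in clusters were too few to be tested between the inputs. Over every listed site both genes were tested with edgeR and neither was called, at log2 ratios of 1 ng over 100 pg of 0.11 for RPLP1 and 0.72 for RPLP2. RPSA, the laminin-binding protein of the small subunit, had 2 clusters in all, 1 in the first 1 ng library and 1 in the third 100 pg library.

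The 10 genes with the most clusters were led by RPS10-NUDT3 with 49, of which 20 were shared with RPS10 because both labels cover the same bases. RPL31, a large subunit protein near the exit tunnel, followed with 33 clusters (7, 9 and 6 at 1 ng and 5, 4 and 2 at 100 pg). RPL36A-HNRNPH2 had 27, RPS23 26, RPL7L1 25, RPL5 21, RPS10 20, RPS6 19, RPL22 19 and RPL37 17. RPL5 binds 5S rRNA, and RPS6 is the small subunit protein that is phosphorylated on growth signals. RPS23 sits at the decoding centre. Cluster number and edited bases did not order the genes alike: the 26 clusters of RPS23 held 1057 edited bases, and the 49 of RPS10-NUDT3 held 142.

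One cluster stood apart. The RPS23 cluster at chr5:82277825-82277869 of hg38, on the minus strand at the start of the second coding exon, was called in all 6 libraries. It held 133, 205 and 184 edited bases at 1 ng and 164, 125 and 185 at 100 pg, more than any other cluster of the group in any library. The groups overlapped. The next largest clusters each lay in 1 library of 100 pg: RPL15 at chr3:23919550-23919774 with 64 edited bases in replicate 1, RPL10 at chrX:154400479-154400523 with 63 in replicate 2, and an intron of RPL17 at chr18:49488642-49488761 with 47 in replicate 1. The RPL17 cluster was made of 4 sites with 9, 13, 13 and 12 edited of 40 to 42 covering reads each, at none of which another library listed an edit that passed the filter.

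The lists of confident clusters, which the authors made by intersecting the clusters of the 3 replicates, held few ribosomal protein clusters. At 1 ng there were 3 of 762 (0.394%, Wilson 95% interval 0.134% to 1.15%), in RPS23, RPL31 and RPL41. At 100 pg there were 2 of 242 (0.826%, Wilson 95% interval 0.227% to 2.96%), in RPS23 and RPL31. Intervals here and below cover counting error only. After the authors' removal of background clusters, the cleaned lists kept the RPL31 cluster at both inputs (chr2:101019494-101019538 at 1 ng and chr2:101019494-101019583 at 100 pg) and the RPL41 cluster at 1 ng (chr12:56116996-56117085). The RPS23 cluster was in neither cleaned list. Per the methods, the background removed is the clusters of buffer-only controls, cells that received no enzyme, and those controls were not analysed here. RPL41 encodes the shortest ribosomal protein, and its cluster lies in exonic sequence that the annotation used here does not give as coding.

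Single sites were read next. A listed site has at least 1 edited read, and the authors' confidence score was found to equal, for all 438824 listed HEK293XT sites with an unedited read, the probability under a beta distribution that the edited share exceeds 1% (tolerance 1e-06). The filter of the study's methods asks for a score over 0.5 together with an edited fraction under 0.8. A site with 1 edited read passes it up to a cover of 69 reads, and the deeper a site is read, the closer to 1% its edited share must come.

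This filter removed most sites of the ribosomal protein genes. They had 2058, 2982 and 2925 listed sites at 1 ng and 1730, 1673 and 1772 at 100 pg, or 4.16% to 4.27% and 4.71% to 4.84% of the listed sites in genes. The filter kept 127, 168 and 176 at 1 ng and 103, 88 and 80 at 100 pg, which is 6.17%, 5.63% and 6.02% and 5.95%, 5.26% and 4.51% of them. In other genes 53.2% to 59.5% passed. The score removed all but 1 of the sites lost in the ribosomal protein genes. Mitochondrial ribosomal protein genes lay between: 22.3% to 37.0% of their sites passed, with a median cover of 160 to 260 reads. The median listed site of a ribosomal protein gene was covered by 1883 to 2716 reads, and that of another gene by 55 to 71.

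The loss fell on coding sequence. Coding sequence held 84.7% to 86.3% of the listed sites in ribosomal protein genes and 37.3% to 38.6% of those in other genes. Of the listed coding sites of ribosomal protein genes, 0.452%, 0.472% and 0.281% passed at 1 ng and 1.02%, 1.248% and 0.981% at 100 pg. Of their sites in UTRs, other exons and introns, 41.6%, 35.6% and 39.0% and 33.3%, 30.3% and 26.8% passed. The median coding site was covered by 2065 to 3006 reads and the median other site by 225 to 536. The median edited share of a listed coding site was 0.0526% to 0.0720%.

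**Figure D2:**
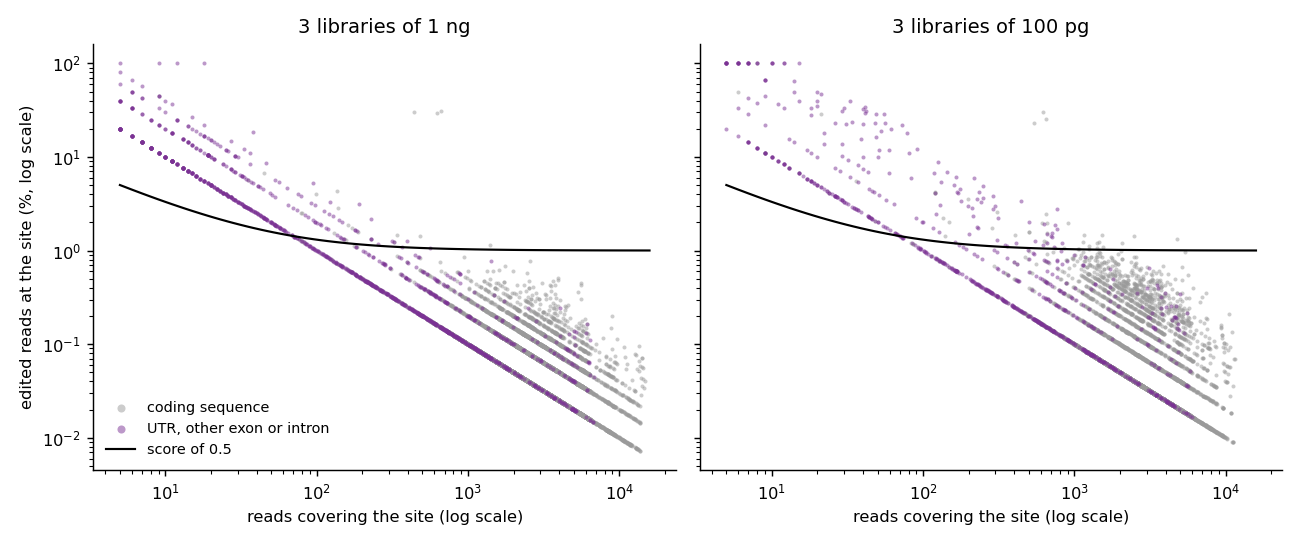
Every listed C-to-U site of the ribosomal protein genes, by cover (reads, log scale) and edited reads (%, log scale), for the 3 libraries of each input. Grey points are coding sites and purple points other sites, and the black line marks a score of 0.5. Nearly all coding sites lie below the line, at median covers of 2065 to 3006 reads and edited shares under 1%.

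The share of all edited reads found in ribosomal protein genes depended on this filter. With it, the share was 0.678%, 0.687% and 0.772% at 1 ng and 0.935%, 0.848% and 0.733% at 100 pg, a ratio of 0.850 with overlap. Over every listed site it was 3.26%, 3.59% and 3.70% at 1 ng and 3.19%, 3.19% and 3.17% at 100 pg, a ratio of 1.11 with no overlap. Without RPS23 the filtered share was 0.394%, 0.389% and 0.462% against 0.691%, 0.673% and 0.482%, a ratio of 0.674 with no overlap. The direction thus turned with the filter and widened without a single gene.

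Filtered sites held 2.69 to 2.89 edited reads each at 1 ng and 6.76 to 7.26 at 100 pg. A single edited read made up 55.1%, 59.5% and 60.8% of the filtered sites at 1 ng and 35.9%, 39.8% and 41.2% at 100 pg.

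Few filtered sites recurred. Of 713 distinct filtered sites in ribosomal protein genes, 20 (2.81%) were found in at least 2 libraries, beside 3.10% in other genes. Over every listed site 3419 of 7199 (47.5%) recurred, beside 10.5% in other genes. Cover differs between these sets of genes in the same direction as recurrence, and its part was not tested.

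The leading site was in RPS23 at chr5:82277851. The edited cytidine is the third base of codon 2, GGC to GGU, and leaves glycine unchanged. It is the second base of its exon, and the base before it is G. Of the covering reads, 30.4%, 31.1% and 29.3% were edited at 1 ng (133 of 437, 205 of 659 and 184 of 628) and 25.2%, 23.1% and 30.0% at 100 pg (164 of 652, 125 of 541 and 185 of 616). The means were 30.3% ± 0.914 (SD, n = 3) and 26.1% ± 3.56 (SD, n = 3), and the groups overlapped. Over the libraries 28.2% of reads were edited (Wilson 95% interval 26.7% to 29.7%). The site had fewer covering reads, 437 to 659, than the median listed coding site of RPS23, which had 1390 to 2287. The reason for the lower cover, and its part in the edited share, were not tested. The cluster of this site is the one missing from the cleaned lists, and whether its edited reads depend on the enzyme was not tested. The 31 bases around the site, in spliced form, were found nowhere else in hg38, with the edited or the unedited letter.

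A second RPS23 site, at chr5:82276155 in codon 129 (UCU to UUU, serine to phenylalanine), passed the filter in 4 libraries. Its edited shares were 1.47%, 0.542% and 1.45% at 1 ng and 1.59%, 1.47% and 0.207% at 100 pg. The same letters occur in the pseudogene RPS23P8. The RPL31 site, at chr2:101019521, passed in 5 libraries. Edited reads were 4 of 18, 1 of 35 and 2 of 20 at 1 ng, and 13 of 56 and 4 of 22 in replicates 2 and 3 at 100 pg. Over these libraries 24 reads (15.9%, Wilson 95% interval 10.9% to 22.6%) were edited. This share leaves out 100 pg replicate 1, which did not list the site and so gives no cover for it. It is thus a share among libraries with at least 1 edited read and can be too high. The site lies inside the confident RPL31 clusters, in an exon with no annotated coding sequence, and no copy of its 31 bases was found elsewhere.

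Recurrence without the filter gave 48 sites listed in all 6 libraries, in 24 of the genes. Of these, 45 lay in coding sequence and 3 in 3′ UTRs. The base before the edited cytidine was A at 25, U at 10, G at 9 and C at 4. Most were edited at a low share: 46 of the 48 at under 1% of reads over the libraries, with a median of 0.162%, and 45 passed the filter in no library. At coding sites the edit would give a stop codon at 2, another amino acid at 23 and the same amino acid at 20. The stop codons were in RPS6 (Q59*, 0.162% of reads) and RPS3 (R40*, 0.0397%). The edited letters of the RPS6 stop site also stand at chr9:19200857-19200887, in a gene that the annotation gives no symbol, so its share is uncertain.

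After RPS23, sites with shares among the highest were as follows. RPL10, a late-joining large subunit protein, was edited at codon 122 (CCC to CUC) in 0.469%, 0.448% and 0.358% of reads at 1 ng and 0.965%, 1.32% and 0.664% at 100 pg, with no overlap. RPL23A at codon 144 (UAC to UAU) had 0.119%, 0.0716% and 0.212% at 1 ng and 0.709%, 0.607% and 0.854% at 100 pg, again with no overlap. The edited letters of that RPL23A site also stand in 6 RPL23A pseudogenes, RPL23AP3 and RPL23AP57 among them, so reads of a pseudogene placed on RPL23A would be listed as edited. The RPL5 site in the 3′ UTR had 0.566%, 0.771% and 0.0724% and 0.240%, 0.173% and 0.357%. RPS3, a protein at the mRNA entry channel, had at codon 78 (GGC to GGU) 0.508%, 0.306% and 0.430% and 0.195%, 0.120% and 0.553%. RPS27A, made as a fusion to ubiquitin, had at codon 55 (ACU to AUU, within the ubiquitin part) 0.314%, 0.229% and 0.144% and 0.417%, 0.286% and 0.557%. RPL8, for which no sequence is shown, had at codon 200 (CGG to UGG) 0.396%, 0.188% and 0.147% and 0.467%, 0.392% and 0.423%. The last 4 sites overlapped between the inputs.

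At 14 of the 48 sites the inputs did not overlap, 11 of them higher at 100 pg. That is 29.2% of these sites (22.9% higher at 100 pg and 6.25% at 1 ng). Of the 827 sites of other genes listed in all 6 libraries it was 12.7% (6.17% higher at 100 pg and 6.53% at 1 ng). The part of cover in this was not tested. The 31 letters around the site stood elsewhere in hg38 with the edited base for 4 of the 48 (1 each in RPL23A, RPL27A, RPS2 and RPS6) and with the unedited base for 32, and in neither form for 14. Values of sites with a copy elsewhere are uncertain, since reads can be placed on the gene or on its copy.

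**Figure D3:**
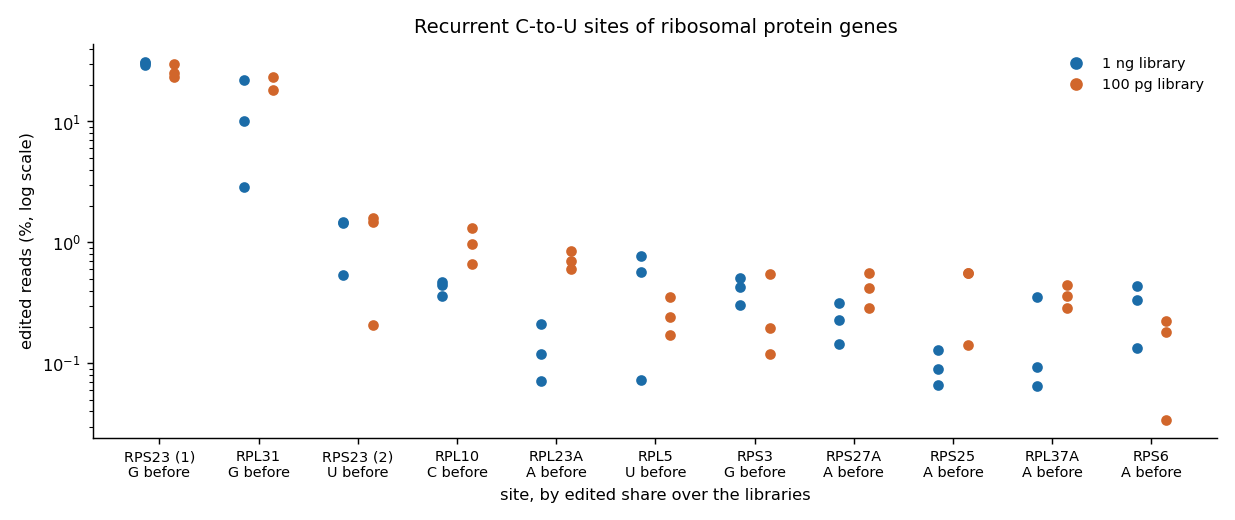
Edited reads (%, log scale) at 11 recurrent sites of ribosomal protein genes, ordered by their edited share over the libraries, with the base before the cytidine under each gene. Each point is a library. RPS23 (1) lies between 23.1% and 31.1% in all 6 libraries, RPL31 between 2.86% and 23.2% in 5, and the sites after RPS23 (2) mostly under 1%, with RPL10, RPL23A and RPS25 higher in every 100 pg library than in any 1 ng library.

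The base before the cytidine ordered the edits of coding sequence. APOBEC1 is known to prefer an A or U before its target. As a background measured the same way, cytidines on the opposite strand of the same coding sequence were counted: in a library that keeps no strand, they collect changes that are not C-to-U edits of the mRNA, antisense transcripts aside. Only coding sequence that lies in no other gene was used, which left out RPL5, RPL15, RPL17, RPL35A and RPS4X. It offered 9808 cytidines on the coding strand and 11003 on the opposite strand. Of the coding cytidines, 43 were listed in all 6 libraries, beside the 45 coding sites given above. The leading RPS23 site was left out of the counts of reads.

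On the coding strand, cytidines after A carried the most edited reads. Per 100 such cytidines there were 49.2, 80.8 and 74.7 edited reads at 1 ng and 72.7, 70.1 and 65.8 at 100 pg. After U there were 33.7, 50.9 and 50.1 and 42.3, 42.9 and 43.9. After G there were 22.2, 33.8 and 33.6 and 33.9, 29.7 and 33.2, and after C there were 16.3, 32.1 and 27.1 and 26.3, 26.5 and 22.0. In each library the order of these 4 bases was A, U, G, C. On the opposite strand, the values of the 4 bases lay between 9.52 and 21.9 in every library, and A was the lowest of the 4 group means. The coding strand exceeded the opposite strand by 5.17, 5.50 and 5.66 times after A at 1 ng and by 5.68, 4.84 and 4.39 times at 100 pg. After C it did so by 1.48, 1.83 and 1.54 times and by 1.45, 1.75 and 1.35 times. For all cytidines together the ratios were 2.38, 2.53 and 2.48 and 2.37, 2.39 and 2.21.

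**Figure D4:**
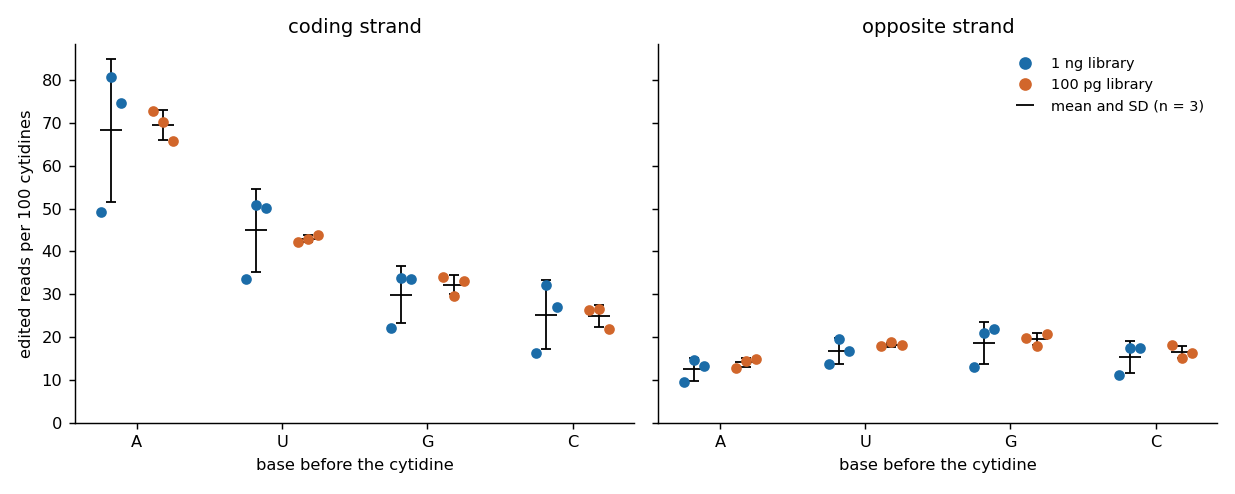
Edited reads per 100 cytidines in coding sequence of ribosomal protein genes that lies in no other gene. Values are by the base before the cytidine, on the coding strand and on the opposite strand. Each point is a library and each bar the mean with its SD (n = 3). On the coding strand the means descend from A (68.3 and 69.6 at 1 ng and 100 pg) over U and G to C (25.2 and 24.9), and on the opposite strand all means lie between 12.5 and 19.5.

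The base before a coding cytidine also varied with the number of libraries that listed it. Among coding cytidines listed in no library, 17.0% had A before them. The share was 18.3% among those listed in 1 library, 22.0% in 2, 27.4% in 3, 37.8% in 4, 43.1% in 5 and 53.5% in 6. On the opposite strand A stood before 19.6% of the cytidines listed in no library, 18.4% in 1, 17.0% in 2, 14.4% in 3, 15.8% in 4 and 18.2% in 5, and before none of the 6 listed in all libraries.

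Over all listed sites of the group, however, A or U stood before the cytidine in 57.8%, 55.0% and 54.4% at 1 ng. At 100 pg it was 48.3%, 49.97% and 51.1%. These values lay below the 71.1% to 72.0% and 59.7% to 60.7% of other genes. Of the 9808 coding cytidines of the group counted above, 42.55% had A or U before them. The cytidines that other genes offer were not counted, so the part of base composition was not tested. Among filtered sites the shares were 72.4%, 69.0% and 71.6% at 1 ng and 68.9%, 56.8% and 63.8% at 100 pg, beside 75.7% to 76.6% and 62.9% to 64.7% in other genes. The number of coding cytidines listed at all was higher at 1 ng, 15.98%, 23.1% and 22.4% against 13.2%, 12.98% and 13.9%, while on the opposite strand it was 8.32%, 11.5% and 11.6% against 10.3%, 9.47% and 10.4%.

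Listed sites of the group lay near an exon end more often than those of other genes. Within 5 nt of an exon end lay 11.9% to 13.9% of the listed sites of ribosomal protein genes and 4.65% to 5.15% of those of other genes. Of the filtered sites it was 4.76% to 12.6% and 3.68% to 4.40%. The leading RPS23 site is 1 of these. These shares are over sites of all regions, introns included, and the group's listed sites lie far more often in coding sequence. The part of region and of exon length in this difference was not tested.

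The genes differed widely in how much of their coding sequence was listed. In 75 genes some coding cytidines belonged to that gene alone, and a median of 61.0% of them were listed in at least 1 library. Over 50% were listed in 47 genes, led in number by RPS2, a small subunit protein at the mRNA entry channel, with 235 of 272 at a median cover of 8093 reads. RPS3 had 158 of 179 listed, RPLP0 188 of 269 and RPLP1 81 of 93. Under 10% were listed in 9 genes. RPSA had 1 of 237 at a cover of 6 reads, RPL7A 2 of 219 at 148, RPL37 2 of 78 at 36, RPL28 3 of 274 at 86, RPL3 4 of 353 at 20 and RPL31 6 of 91 at 89.5. RPL3 and RPL7A, core proteins of the large subunit, thus had almost no listed coding site although their mRNAs are known to be abundant. The genes named in this paragraph, other than RPL26L1, RPL31, RPL37, RPL7L1, RPLP0, RPLP1 and RPSA, were chosen after their values were seen. Where reads of these genes were placed is not given in the sources used here. The median cover of coding sites was ordered for the 70 genes with listed coding sites in all 6 libraries. Among these it ran from RPS2 with 8012 reads (mean over the libraries), RPS19 with 7204, RPS3 with 5174, RPLP1 with 5059 and RPS15 with 5051. The lowest were RPL26L1 with 506 and RPL7L1 with 119. Genes of lower cover, such as RPL3 and RPSA, were not in this order.

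The test for a difference between the inputs per gene found none in this group. Edited reads of filtered sites were summed per gene and tested with edgeR, and 2114 genes passed the filter on low counts. Of them 5 (0.237%) were called at an adjusted p under 0.05, all lower at 1 ng. Sites were assigned to the 80 ribosomal protein genes that are no read-through genes, and 10 of these had enough edited reads to be tested. Of the 10, 0 were called. At an unadjusted p under 0.05, 1 of the 10 passed, against 9.7% of all genes tested. DESeq2 called 1 of the 10, against 4.26% of all genes tested. With the mean cover of each gene's filtered sites as an offset, edgeR called 2 of 5, RPL5 and RPS23, against 0.366% of all genes tested. This offset is not the cover of the whole gene and changes with the sites that passed in a library. The RPL5 sites had covers of 6 to 9 in 1 ng replicate 1, and 1 had a cover of 1252 in 100 pg replicate 2. The median log2 ratio of 1 ng over 100 pg was -0.41 over the 10 genes and -0.02 over all genes tested. The group's median was -0.12 without the first 100 pg library, -0.66 without the first 1 ng library, -0.67 without the second 100 pg library and -0.68 without the third 1 ng library, over the 12 to 19 genes then tested.

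RPL26L1, the paralog of RPL26, was the gene with an unadjusted p under 0.05 and the one that DESeq2 called. Its edited reads were 3, 4 and 0 at 1 ng and 21, 39 and 20 at 100 pg, so the inputs did not overlap. The log2 ratio was -3.21 ± 1.05 (SE) with an edgeR adjusted p of 0.259. No RPL26L1 site passed the filter in a second library: at 100 pg its reads came from 3′ UTR sites such as chr5:172969603 (10 of 499) in replicate 1 and chr5:172969599 (21 of 764) in replicate 2, and from coding sites such as chr5:172968473 (12 of 609) in replicate 3.

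RPS23 had 143, 211 and 200 edited reads at 1 ng and 188, 132 and 185 at 100 pg. Scaled by edgeR to CPM of the edited reads, the inputs did not overlap (2723, 2932 and 3079 CPM against 2496, 1751 and 2618 CPM), with a log2 ratio of 0.35 ± 0.22 (SE) and an edgeR adjusted p of 0.734. Inputs that did not overlap were seen, higher at 1 ng, for 1 of the 10 genes, RPS23 (9.74% of all genes tested) and, lower at 1 ng, for 2 of the 10, RPL23A and RPL26L1 (9.18% of all genes tested). RPL23A had 6, 2 and 0 edited reads at 1 ng and 11, 11 and 30 at 100 pg. The other 7 tested genes overlapped. RPL15 had 0, 1 and 19 against 71, 41 and 0, and RPL31 28, 16 and 10 against 17, 33 and 7. RPL10, with 2, 9 and 8 against 15, 64 and 8, was too low to be tested, and 63 of the 64 came from the codon 122 site. By mean edited reads the group was led by RPS23 (176.5), RPL15 (22.0), RPL31 (18.5), RPL10 (17.7), RPL26L1 (14.5), RPL7L1 (14), RPS6 (10.8), RPL22 (10.2), RPL23A (10) and RPL7 (9.83).

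Edited bases in clusters gave the same picture. Of 2577 genes tested with edgeR 8 (0.31%) were called, and 0 of 13 ribosomal protein genes, with 2 (RPL26L1 and RPL23A) at an unadjusted p under 0.05 against 9.7% of all genes tested. DESeq2 called 1 of the 13, RPL26L1, against 4.07% of all genes tested. The log2 ratios by edgeR were -3.25 for RPL26L1 and -2.77 for RPL23A.

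Over every listed site, 73 ribosomal protein genes had enough edited reads to be tested among 3278 genes. EdgeR called 0 genes of the group and 0 of all genes, and DESeq2 called 0. At an unadjusted p under 0.05, 4 of the 73 passed, against 6.19% of all genes tested. The 4 genes, named after their values were seen, were RPS15A, RPS24, RPS2 and RPL23A. RPS15A had 40, 39 and 33 edited reads at 1 ng and 9, 8 and 23 at 100 pg, with a log2 ratio of 1.67 ± 0.59 (SE) and an edgeR adjusted p of 0.718. RPS24 had 21, 63 and 73 against 13, 13 and 33 (log2 ratio 1.49). RPS2 had 260, 368 and 368 against 318, 300 and 276 (log2 ratio 0.32), and RPL23A 20, 21 and 20 against 52, 39 and 47 (log2 ratio -0.98). The inputs did not overlap, higher at 1 ng, in 6 of the 73 (8.22% against 8.15% of all genes tested) and, lower at 1 ng, in 3 (4.11% against 6.77%). The median log2 ratio was 0.09 over the group and -0.05 over all genes, and lay at 0.11 to 0.21 over the group with each library left out. Over every listed site the most edited reads were in RPS2 (mean 315), RPS23 (213), RPS3 (213), RPS6 (182) and RPL10 (179).

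**Figure D5:**
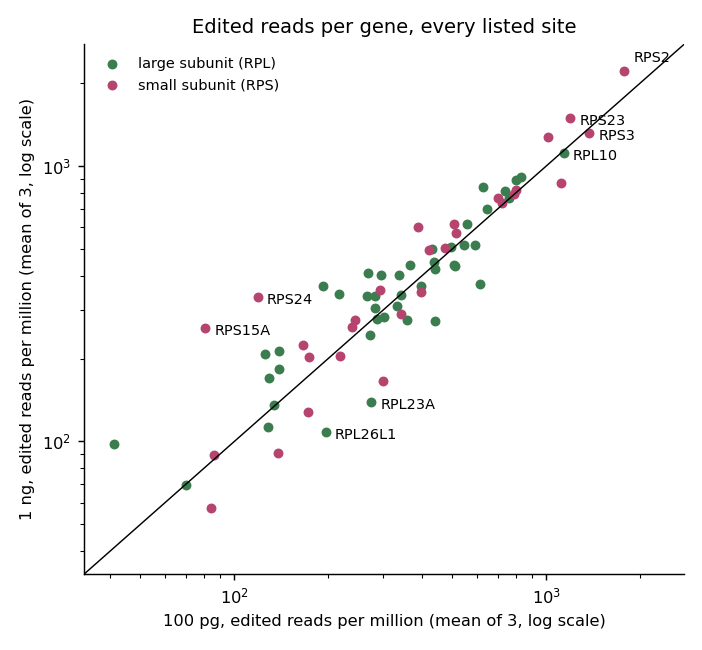
Edited reads in CPM over every listed site for the 73 tested ribosomal protein genes, 100 pg on the x axis and 1 ng on the y axis (means of 3 libraries, log scales), with equality as the line. Genes lie along the line, with RPS15A and RPS24 above it and RPL23A below it, and none was called by edgeR.

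The lists beside the group gave few calls in the same tests. Of the filtered edited reads, 0 of 13 tested mitochondrial ribosomal protein genes, 0 of 19 proteasome subunit genes, 0 of 24 translation factor genes, 0 of 9 other genes of the ribosome and of mRNAs with a pyrimidine tract, 0 of 18 ribosome assembly genes and 0 of 1 snoRNA host genes were called by edgeR. Of 23 nuclear oxidative phosphorylation genes 1 was called, ATP5F1A. At an unadjusted p under 0.05 by edgeR these lists had 2, 3, 3, 2, 1 and 0 genes, and the oxidative phosphorylation list had 11 of 23. Of all genes tested, 9.7% passed.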

How the data were processed

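C-to-U edits were read from 6 enzyme-only INSCRIBE libraries of HEK293XT cells (HEK293T in the methods), 3 from 1 ng and 3 from 100 pg of RNA. The authors trimmed single-end reads of 100 nt with cutadapt, removed repeat reads, aligned to hg38 with STAR 2.4.0 (per the submitters' processing notes), called sites with SAILOR 1.1.0 without dbSNP 151 variants, and called clusters with FLARE (FDR 0.1, merged within 15 nt). The deposited site lists give counts of edited and covering reads, the edited fraction and a confidence score. The deposited cluster lists give counts of edited and target bases, read depth as a signal and a score. The authors intersected the replicates with bedtools 2.27.1. No deposited value is normalised, and a position missing from a list has no known fraction. Depth per value is the cover printed beside it.

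Sites were assigned to genes by strand with GENCODE release 44 (release 29 in the methods). Read-through genes and small RNA genes did not compete with their hosts, and sites in more than 1 other gene were left out. All 451998 listed HEK293XT sites are a C in hg38. The filter of the methods was kept (score over 0.5, edited fraction under 0.8). Edited reads, and edited bases in clusters, were summed per gene and tested with edgeR 4.0.16 (quasi-likelihood, TMM, filterByExpr, Benjamini-Hochberg over all genes tested, called under 0.05), after a check on simulated data. Shares and rates have no test. An exact test of 3 against 3 cannot give a p under 0.1, and none was used. Alternatives were DESeq2 1.42.0, other filters, strand, cover, gene sets, a replicate block and each library left out. Site windows were read from hg38. Unused columns of per-sample values numbered 0.

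The members, lists and tests were chosen with earlier results of these data known. Genes named by rule are those called by edgeR, the 10 with most edited reads, the 10 with most clusters, those in a cleaned list, RPLP0, RPLP1, RPLP2, RPSA, and those with clusters in all libraries of 1 input and none of the other. Sites named by rule passed the filter in at least 4 libraries. Other genes and sites were chosen after their values were seen. Some members and sites are not reported here. The lists beside the group were mitochondrial ribosomal proteins, nuclear oxidative phosphorylation, proteasome subunits, translation factors, other ribosome and pyrimidine-tract mRNAs, ribosome assembly and snoRNA host genes.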

Additional observations from a re-analysis of the deposited data

Results flagged for a closer look

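A signal was seen outside the strand of the genes described. Opposite RPLP2, at chr11:811616 on the minus strand, where the base before the cytidine is U, a site was listed in all 6 libraries at 1.89%, 1.93% and 1.32% of reads from 1 ng and 2.18%, 1.98% and 1.74% from 100 pg, or 1.83% of reads over the libraries. It stood out because the other cytidines opposite the ribosomal protein coding sequences that were listed in all 6 libraries had lower shares over the libraries: RPL4 0.969%, RPL10A 0.441%, RPS2 0.0682% and 0.0324%, and RPS6 0.0656%. The site was covered by 1270 to 1970 reads per library, and the median listed coding site of RPLP2 by 1129 to 1701. Per the methods these libraries keep no strand. A change in reads of RPLP2 that is no C-to-U edit, and an edit of an antisense RNA, thus cannot be told apart here. No sample without enzyme was analysed for these cells, and the cause was not tested.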

How the results depend on the processing

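The number of ribosomal protein genes called between the inputs was 0 with edgeR for filtered sites, for clusters and for every listed site, and in all 3 tests stayed 0 with DESeq2's size factors, no filter on low counts, the replicate block and each library left out (0 to 0). It was also 0 for filtered sites with a cover of at least 20 reads and with no regard to strand, and for clusters with a score above 0.99 (chosen after seeing the data, in place of a planned limit on an adjusted p that the library tables do not hold, which was not run). Each of these 3 was run for that test alone. It was 1 with the DESeq2 Wald test for filtered sites and 1 for clusters, RPL26L1 in both, against 4.26% and 4.07% of all genes tested, and 0 over every listed site. It was 2 with the mean cover of each gene's filtered sites as an offset, RPL5 (log2 ratio 4.69) and RPS23 (1.56). There, 5 genes of the group were tested and 6 of all 1641 genes were called (0.366%). This offset is not the cover of the whole gene.

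The ratio of the inputs in the share of edited reads, 0.850, was 1.11 over every listed site and 0.674 without RPS23, and 0.799 to 0.902 with each library left out. The ratio of the cluster shares, 0.981, lay at 0.927 to 1.05 with each library left out. The ratio of the edit rates, 1.78, was 2.87 for clusters with a score above 0.99 and 1.56 to 1.99 with each library left out. The causes were not tested.

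Over all genes, the 5 called for filtered sites became 90 (DESeq2 Wald test), 11 (size factors), 40 (no filter on low counts), 14 (no regard to strand), 0 (every listed site) and 0 to 6 with each library left out. The 8 called for clusters became 105, 12, 41 (in the same order) and 0 to 7. The 0 called over every listed site became 12 without a filter and 0 to 1 with each library left out. With the replicate block the calls were 22, 28 and 0. Whether the replicate numbers pair the libraries is not known. Deviations of same-numbered libraries correlated at -0.02, 0.03 and -0.01 over genes. With few edited reads in many genes, such correlations cannot exclude a pairing. Of 188 alternative values, 157 were labelled the same, 27 moved, 4 gained a call and 0 reversed. Counts were judged by their ratio to the main count, and ratios of shares and rates by the spread between replicates. Log2 ratios of single genes were judged by their sign and the threshold. Only these log2 ratios could be labelled reversed. The share of edited reads, whose direction turned over every listed site, therefore counts as moved. The ribosomal protein genes with enough edited reads or bases to be tested numbered 10 for filtered sites, 13 for clusters and 73 over every listed site, and a test says nothing about the genes it left out.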
